A study of Mus musculus with 6 samples.

Results

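Messenger RNA levels of 35 genes for SR proteins and hnRNPs, the splicing factors that bind pre-mRNA in the nucleus, were examined in mouse skin under chronic restraint stress. They were chosen by name and type. Protein-coding genes called Srsf with a number or starting with Hnrnp were taken, together with Tra2a, Tra2b, Srrm1 and Srrm2, where the mean over all libraries reached 0.1 FPKM (fragments counted on a gene, scaled by its exon length and by library size). This gave 35 of the 28389 genes that reached the same mean. Of 37 matching names, 2 were processed pseudogenes and were left out by type, Hnrnpa1l2-ps at a mean of 0.379 FPKM and Hnrnpa1l2-ps2 at 0.0766 FPKM. No protein-coding name fell under the threshold, and the member nearest to it was Srsf12 at 0.266 FPKM. Total RNA was sequenced from the skin of 3 mice under chronic restraint stress (CRS), a rodent model of psychological stress in which the animal is confined repeatedly, and from 3 control mice (CON). Both groups are listed at week 12. The labels give no strain, sex, age or body site. The design counts 3 mice in each group, so each library was taken to be 1 mouse.

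An SR protein carries 1 or 2 RNA recognition motifs and a tail rich in arginine and serine. It typically binds an exon and helps the U1 and U2 particles find the splice sites beside it. The hnRNPs coat nascent transcripts, and many of them act against SR proteins by making splice sites less accessible. Many of these genes regulate their own messages by splicing in an exon with a premature stop codon, which sends the transcript to nonsense-mediated decay. In mouse skin, forced expression of Srsf6 is known to give epidermal hyperplasia, and in human epidermis hnRNP K and hnRNP L have been tied to the progenitor state.

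Each library's depth, read from the steps in its FPKM values, was 19.2 M to 25.7 M fragments in CRS and 13.3 M to 19.9 M in CON. CRS replicate 2 and CON replicate 1 stood apart. In CON replicate 1, mitochondrially encoded genes took 13.9% of fragments, against 1.72% to 3.52% elsewhere, and 12 skeletal muscle markers summed to 14460.4 FPKM there against 493 to 3029 FPKM elsewhere. Xist, the RNA of the inactive X chromosome, stood at 2.80 FPKM in CON replicate 1 and at 0.0221 to 0.168 FPKM in the others, while the Y-linked genes Ddx3y, Uty, Kdm5d and Eif2s3y were present in all 6. Whether that library holds tissue of more than 1 animal was not tested. In CRS replicate 2, short genes were low and long genes high. Among protein-coding genes of at least 1 FPKM, its median log2 difference from the mean of CRS replicates 1 and 3 was -1.43 for merged exons under 1000 nt and 1.30 for those of 8000 nt or more. The markers of skin were present throughout: 7 keratinocyte markers summed to 2260 to 3091 FPKM in CRS and to 2016 to 2257 FPKM in CON, and 7 fibroblast markers to 811 to 1281 FPKM in CRS and to 237 to 1285 FPKM in CON, with none at 0.

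The members covered a wide range of levels. Hnrnpa1, an hnRNP of the A/B family that blocks splice sites and shuttles messages out of the nucleus, was the most abundant in every library, at 106, 200.1 and 129 FPKM in CRS replicates 1 to 3 and at 179, 224 and 134 FPKM in the CON replicates. In all, 28 members had a mean of at least 10 FPKM and 5 a mean under 5 FPKM. The low ones were Srsf12, Srsf1, Hnrnpu, Srsf4 and Hnrnpll. Srsf1 averaged 1.21 FPKM from 72 to 228 fragments per library and Hnrnpu 1.49 FPKM from 233 to 485 fragments. Srsf1 and Hnrnpu are widely expressed genes, and whether the authors' counting missed fragments of them was not tested. Srsf12 rested on 6 to 36 fragments, so its values carry wide counting error. Together the members took 0.364%, 0.813% and 0.404% of the fragments of CRS replicates 1 to 3, and 0.787%, 0.678% and 0.653% of those of the CON replicates. Their summed level in CRS replicates 1 and 3 lay below that of the 3 CON mice, and CRS replicate 2 lay close to CON replicate 1.

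**Figure D1:**
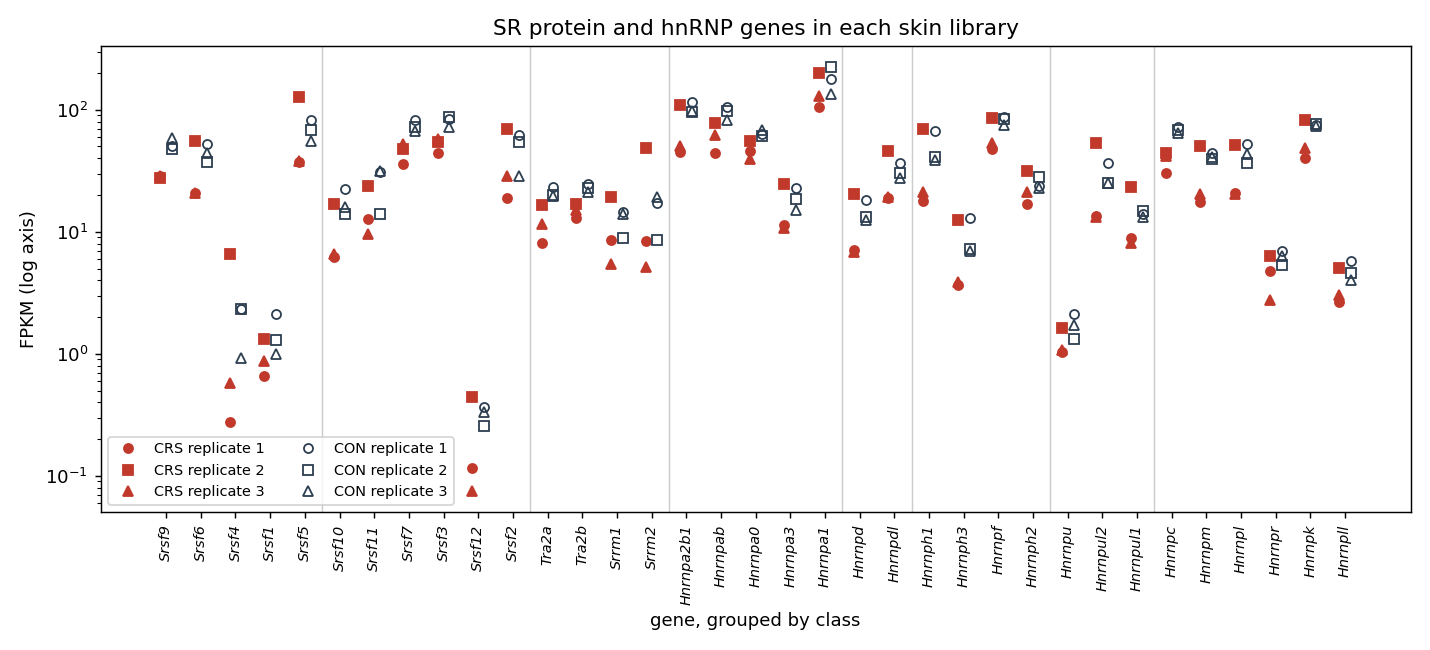
FPKM of each of the 35 genes on a log axis in every library, with CRS (filled red) left of CON (open, dark) and the grey lines separating classes. CRS replicate 2, the red square, is the highest of all 6 libraries for 16 genes, and CRS replicate 1 or 3 is the lowest for 34.

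In the skin of CRS mice the splicing factor genes stood lower than in CON mice on the log scale, but no member passed the test. CRS and CON were compared with limma on log2(FPKM + 0.1) over all 28389 genes, and the fold changes given are differences on this scale, on which low genes show too small a change. The log2 fold change was under 0 for all 35 members, between -0.94 for Srsf10 and -0.14 for Srrm2, where 67.8% of all genes tested and 74.1% of those of at least 1 FPKM were under 0. With median-ratio scaling of the libraries 32 of the 35 were under 0, beside 49.6% of all genes, and Srrm2, Hnrnph2 and Hnrnpul1 had values above 0. The members' median was -0.57, and the median of all genes was -0.20, a difference of -0.38. Every member had a limma adjusted p of 0.9999 (Benjamini-Hochberg over all genes), and 0 genes of the 28389, or 0% in either direction, passed at 0.05. With 3 libraries a group and member standard errors of 0.27 to 0.996, changes of this size were hard to call, so the count of 0 does not show equal levels. The unadjusted limma p was under 0.05 for 4 members with lower values in CRS (Srsf9, Tra2a, Hnrnpc and Srsf7) and for 0 with higher values, where 1.63% of all genes were lower and 0.919% higher. Median-ratio scaling left 0 such members, beside 0.648% of all genes. In bulk skin, fewer cells that use a gene and less of its RNA per cell cannot be told apart.

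In 8 members, 22.9%, every CRS value was under every CON value, where this held for 5.19% of all genes tested and for 7.96% of those of at least 1 FPKM. They were Srsf9, Srsf7, Srsf3, Tra2a, Tra2b, Hnrnpab, Hnrnpa0 and Hnrnpc. No member had the opposite order, which 1.65% of all genes had. For a separated member the exact two-sided permutation p was 0.1, the smallest that 3 against 3 allows. With median-ratio scaling 4 of the 8 were separated, namely Srsf9, Tra2a, Hnrnpa0 and Hnrnpc, where 2.18% of all genes were.

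**Figure D2:**
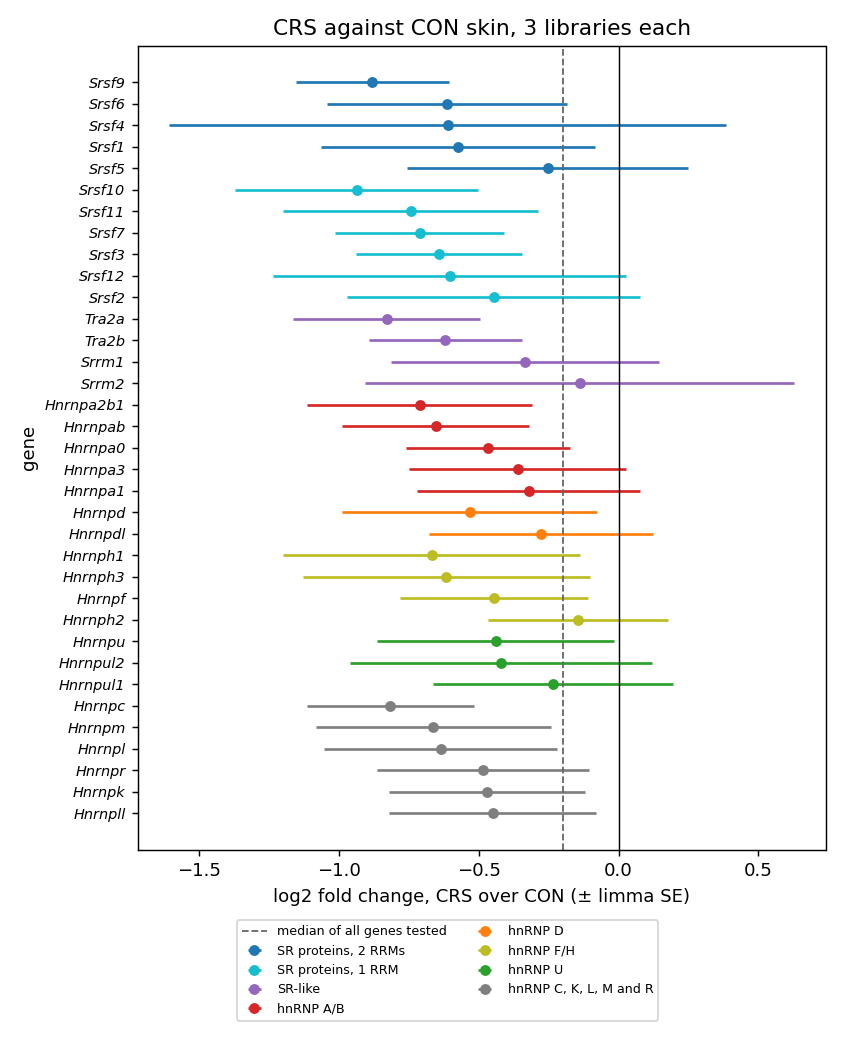
Log2 fold change, CRS over CON, of each gene with its limma standard error as bars, coloured by class, with the dashed line at the median of all genes tested (-0.20). All 35 points lie left of 0, and Srrm2 and Hnrnph2 lie right of the dashed line.

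Among the SR proteins with 2 RNA recognition motifs, Srsf9 was the most even within its groups. Srsf9, whose product helps choose between alternative 5′ splice sites, stood at 28.5, 27.5 and 28.5 FPKM in the CRS replicates and at 50.6, 47.7 and 58.4 FPKM in the CON replicates. The groups were far apart and the CRS values nearly equal. Means were 28.2 ± 0.59 FPKM in CRS and 52.2 ± 5.55 FPKM in CON (SD, n = 3 each), a log2 fold change of -0.88 (SE 0.27, unadjusted p = 0.0114 by limma, adjusted p = 0.9999). Each mouse left out in turn moved it only between -0.95 and -0.80. Srsf6, the factor tied to epidermal growth in mice, had 20.6, 55.4 and 20.9 FPKM in CRS and 52.0, 37.4 and 43.96 FPKM in CON. CRS replicate 2 was the highest of all 6 and the other CRS mice the lowest, and the log2 fold change was -0.61 (SE 0.43). Srsf5, an SR protein that shuttles between nucleus and cytoplasm, had 37.2, 127 and 37.9 FPKM in CRS and 81.9, 67.6 and 55.2 FPKM in CON. It had the highest mean of the Srsf genes through CRS replicate 2, and Srsf3 was higher in the other 5 libraries. Its linear means were nearly equal, at 67.5 ± 51.8 FPKM in CRS and 68.2 ± 13.4 FPKM in CON, while the log2 fold change was -0.25 (SE 0.50). That value turned to 0.045 without CRS replicate 1 and to 0.032 without CRS replicate 3. Srsf1, the founding member that promotes use of nearby 5′ splice sites, had a log2 fold change of -0.57 (SE 0.49) at the low level given above. Srsf4, a long-tailed SR protein named after its values were seen, had 0.277, 6.61 and 0.579 FPKM in CRS, from 19, 606 and 52 fragments. In CON it had 2.35, 2.34 and 0.930 FPKM, from 158, 166 and 44 fragments. Its log2 fold change of -0.61 (SE 0.996) stood beside a higher linear mean in CRS, and exons of Gm12992 on the other strand covered 43.0% of its exon length. The class median was -0.61.

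The SR proteins with 1 RNA recognition motif had a class median of -0.68. Srsf7, which carries a zinc knuckle besides its RNA recognition motif and exports messages from the nucleus, had 36.2, 47.2 and 52.4 FPKM in CRS and 82.0, 72.5 and 66.4 FPKM in CON. The groups did not overlap, and CRS replicate 2 lay between the other CRS mice. The log2 fold change was -0.71 (SE 0.30, unadjusted p = 0.0452 by limma, adjusted p = 0.9999). Srsf3, the smallest SR protein, which binds pyrimidine-rich sites, had 44.5, 54.4 and 57.7 FPKM in CRS and 83.9, 87.6 and 72.4 FPKM in CON. Again the groups were separate and CRS replicate 2 was no exception, with a log2 fold change of -0.64 (SE 0.30). The Srsf3 to Srsf7 ratio within a library, which no library scaling alters, ran from 1.10 to 1.23 in CRS and from 1.02 to 1.21 in CON, with the groups overlapping. Srsf10, an SR protein that turns into a repressor when dephosphorylated by heat shock, had the lowest fold change of all members, -0.94 (SE 0.43). It was named after its values were seen, at 6.25, 16.9 and 6.59 FPKM in CRS and 22.3, 14.1 and 15.9 FPKM in CON. CRS replicate 2 lay inside the CON range there. Srsf11 had -0.74 (SE 0.46), with CON replicate 2 at 14.0 FPKM inside the CRS range. Srsf2, which marks nuclear speckles and binds exonic enhancers, had -0.45 (SE 0.52) and ran from 18.9 to 70.1 FPKM in CRS and from 28.4 to 61.9 FPKM in CON. Its exons overlapped Mettl23 on the opposite strand over 460 of 2958 nt, and strand-specific counting was not stated. Srsf12 had -0.60 (SE 0.63).

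The SR-like class holds the Tra2 proteins, which bind purine-rich exonic enhancers, and the large speckle proteins Srrm1 and Srrm2, which bridge splicing factors without a classical RNA recognition motif. Tra2a had 8.15, 16.7 and 11.6 FPKM in CRS and 23.1, 19.9 and 19.5 FPKM in CON, with no overlap, and a log2 fold change of -0.83 (SE 0.34, unadjusted p = 0.0369 by limma, adjusted p = 0.9999). Tra2b had 13.0, 16.9 and 14.96 FPKM in CRS and 24.5, 22.9 and 21.4 FPKM in CON. The groups did not overlap and the log2 fold change was -0.62 (SE 0.27, unadjusted p = 0.0515 by limma, adjusted p = 0.9999). The Tra2a to Tra2b ratio was 0.627, 0.987 and 0.778 in CRS and 0.943, 0.867 and 0.914 in CON, so it overlapped. Srrm2 behaved unlike the Tra2 genes, and it was named after its values were seen. It had 8.39, 48.9 and 5.10 FPKM in CRS and 17.2, 8.52 and 19.3 FPKM in CON. CRS replicate 2 was far above all other libraries, CRS replicates 1 and 3 were the lowest, and the log2 fold change of -0.14 (SE 0.77) again stood beside a higher linear mean in CRS. It was -1.10 without CRS replicate 2 and 0.52 without CRS replicate 3. Srrm1 had -0.34 (SE 0.48). The class median was -0.48, and -0.96 without CRS replicate 2.

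The hnRNP A/B class, which contains the 3 members with the highest means, had a median of -0.47. Hnrnpab, whose product binds single-stranded RNA and DNA, had 44.6, 78.2 and 61.7 FPKM in CRS and 106, 97.2 and 81.8 FPKM in CON. The groups were separate by a narrow margin between CRS replicate 2 and CON replicate 3, and the log2 fold change was -0.65 (SE 0.34). Exons of Phykpl on the other strand covered 809 of its 2782 nt. Hnrnpa0, a small member of the family, was separate as well, with values of 39.2 to 55.4 FPKM in CRS and 60.4 to 68.4 FPKM in CON and a log2 fold change of -0.47 (SE 0.29). Hnrnpa2b1, which blocks splice sites and carries messages along microtubules, had 45.02, 108 and 50.3 FPKM in CRS and 115, 95.7 and 98.1 FPKM in CON. CRS replicates 1 and 3 were at less than the lowest CON value while CRS replicate 2 was among the CON values, and the log2 fold change was -0.71 (SE 0.40). Hnrnpa1 overlapped, with a log2 fold change of -0.32 (SE 0.40), and Hnrnpa3 had -0.36 (SE 0.39). Reads of Hnrnpa1 can also match its processed pseudogenes, and the sources used here do not say how the authors assigned them. The Hnrnpa1 to Hnrnpa2b1 ratio was 2.36, 1.84 and 2.57 in CRS and 1.55, 2.34 and 1.36 in CON, so that the groups overlapped through CRS replicate 2 and CON replicate 2.

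The hnRNP D class, whose proteins bind AU-rich elements and steer message decay, had a median of -0.41. Hnrnpd had 7.12, 20.4 and 6.80 FPKM in CRS and 18.4, 13.1 and 12.6 FPKM in CON, a log2 fold change of -0.53 (SE 0.46). Hnrnpdl had 19.1, 46.2 and 19.3 FPKM in CRS and 36.5, 30.4 and 27.4 FPKM in CON, a log2 fold change of -0.28 (SE 0.40). In both genes CRS replicate 2 was the highest library and CRS replicates 1 and 3 the lowest. Within the hnRNP F/H class, which binds runs of guanine, the median was -0.53. Hnrnph1 had 17.7, 69.8 and 21.1 FPKM in CRS and 66.5, 40.9 and 38.7 FPKM in CON, a log2 fold change of -0.67 (SE 0.53). Hnrnpf, the most abundant of this class, had 47.8, 86.0 and 53.0 FPKM in CRS and 87.1, 84.3 and 75.05 FPKM in CON, a log2 fold change of -0.45 (SE 0.34). CRS replicate 2 was the highest library for Hnrnph1 and lay within the CON range for Hnrnpf. Hnrnph3 had -0.62 (SE 0.51) and the X-linked Hnrnph2 -0.14 (SE 0.32).

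The hnRNP U class binds RNA and the nuclear scaffold and had a median of -0.42. Hnrnpu, a chromatin-associated RNA binder that also helps to hold Xist RNA on the X chromosome, had 1.04, 1.63 and 1.08 FPKM in CRS and 2.13, 1.33 and 1.73 FPKM in CON, a log2 fold change of -0.44 (SE 0.42). Exons of Cox20 on the opposite strand cover 804 of its 11599 nt, and Cox20 is listed at 0 FPKM in these libraries. Hnrnpul2 had 13.4, 53.2 and 13.3 FPKM in CRS and 36.7, 24.97 and 24.99 FPKM in CON, a log2 fold change of -0.42 (SE 0.54). CRS replicate 2 stood above every CON mouse and the other CRS mice below all of them. Hnrnpul1 had the same order, and a log2 fold change of -0.23 (SE 0.43).

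The remaining hnRNPs, C, K, L, M and R, had a class median of -0.56. Hnrnpc, which measures transcript length and masks cryptic exons at runs of uridine, had 30.4, 44.4 and 41.9 FPKM in CRS and 71.6, 67.7 and 64.2 FPKM in CON. The groups were well apart and no library stood out within either. Means were 38.9 ± 7.48 FPKM in CRS and 67.8 ± 3.68 FPKM in CON (SD, n = 3 each), and the log2 fold change was -0.82 (SE 0.30, unadjusted p = 0.0244 by limma, adjusted p = 0.9999), or -0.92 to -0.65 with each mouse left out. Hnrnpm, which binds GU-rich sites, had 17.6, 50.3 and 20.3 FPKM in CRS and 44.4, 39.4 and 40.8 FPKM in CON, a log2 fold change of -0.66 (SE 0.42). March2 on the same strand shares 14.7% of its exon length. Hnrnpk, a KH-domain protein that binds runs of cytosine, had 39.9, 82.1 and 48.2 FPKM in CRS and 74.6, 76.1 and 74.0 FPKM in CON, a log2 fold change of -0.47 (SE 0.35). For both genes the 3 CON values were close together, CRS replicate 2 lay above them and CRS replicates 1 and 3 below them. Hnrnpl, which binds CA repeats, had -0.64 (SE 0.42), Hnrnpr -0.48 (SE 0.38) and Hnrnpll, a relative of Hnrnpl known for regulating CD45 splicing in lymphocytes, -0.45 (SE 0.37). The ratio of Hnrnpm to Hnrnpc was 0.577, 1.13 and 0.484 in CRS and 0.621, 0.583 and 0.636 in CON, so that CRS replicates 1 and 3 lay below the CON range and CRS replicate 2 far above it.

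**Figure D3:**
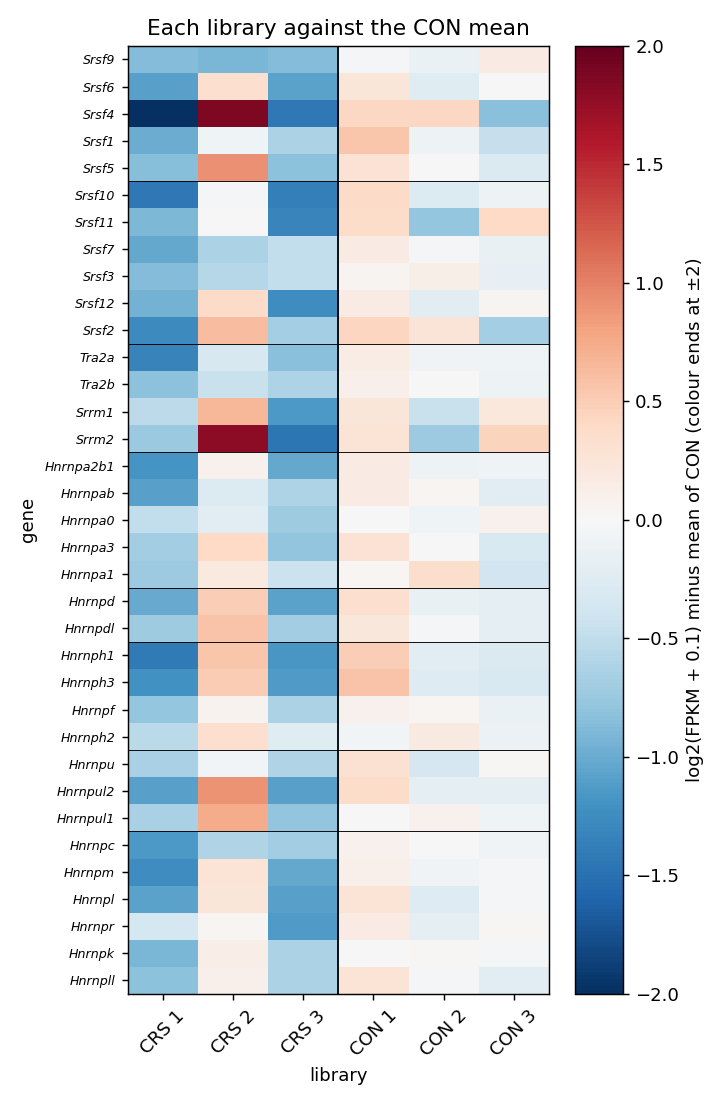
Each gene's log2(FPKM + 0.1) in each library minus its mean over the 3 CON libraries, with CRS libraries left of the black line and classes separated by horizontal lines. CRS 1 and CRS 3 are blue for almost every gene, and CRS 2 ranges from 1.87 for Srsf4 to -0.92 for Srsf9.

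The CRS mice did not form an even group for these genes. The mean of CRS replicates 1 and 3 lay below the CON mean on the log scale for all 35 members, whereas CRS replicate 2 lay above the CON mean for 23. Member medians relative to the CON mean were -0.91, 0.19 and -0.83 in CRS replicates 1 to 3 and 0.23, -0.07 and -0.11 in the CON replicates. Over genes of at least 1 FPKM these medians were -0.36, 0.15 and -0.44 in CRS and 0.04, -0.01 and -0.01 in CON. The log2 difference of CRS replicate 2 from the mean of the other CRS mice had a median of 1.15 over the members, against 0.56 over genes of at least 1 FPKM. It ran from -0.05 for Srsf9, 0.10 for Srsf3, 0.12 for Srsf7, 0.27 for Tra2b and 0.31 for Hnrnpc to 1.99 for Hnrnpul2, 2.88 for Srrm2 and 3.73 for Srsf4. Among genes of at least 1 FPKM these last values lay at the 93.0, 98.0 and 99.1 percentiles. The difference moved with exon length over all genes, as given above. Srsf3 and Tra2b, at 0.10 and 0.27, have merged exons of 7899 and 9235 nt. Merged exons cover all annotated transcripts of a gene, so they can be longer than its messages. Below 8000 nt the members' median difference was above that of protein-coding genes of their length. The 10 members of 2000 to under 4000 nt had 1.13 beside 0.44, and the 17 of 4000 to under 8000 nt had 1.26 beside 1.00. The 7 of 8000 nt or more lay the other way, at 0.83 beside 1.30. Srsf9, the shortest, had -0.05 beside -0.41 for genes of 1000 to under 2000 nt. The part of length in these differences was not tested.

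**Figure D4:**
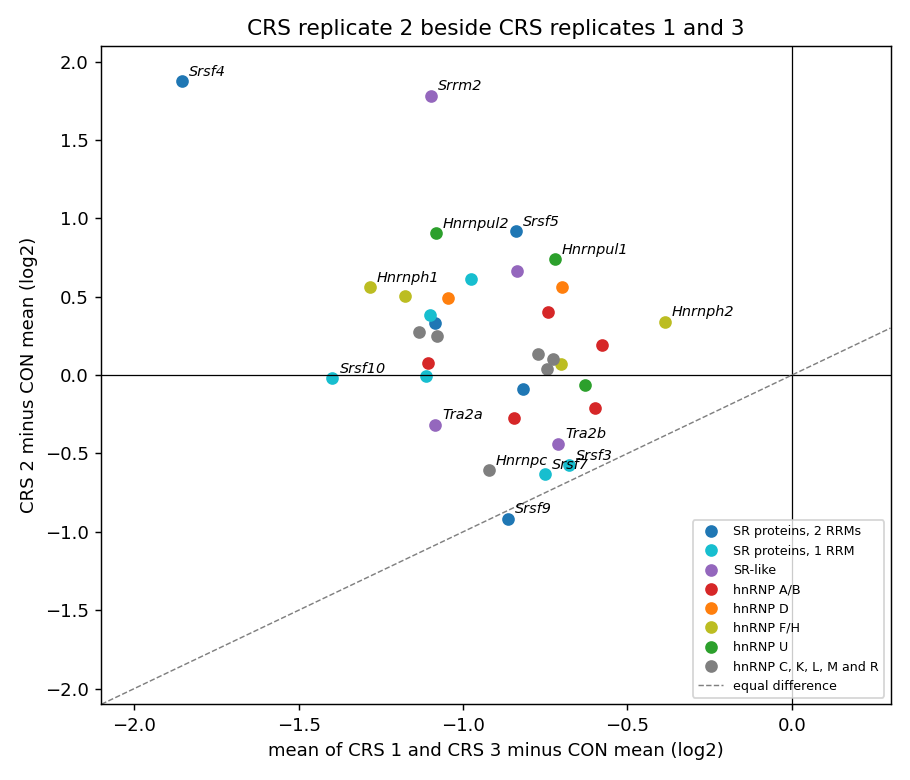
Log2 difference from the CON mean, with CRS replicate 2 on the vertical axis and the mean of CRS replicates 1 and 3 on the horizontal axis, 1 point per gene coloured by class. Every point lies left of 0, 23 lie above 0, and Srsf9 alone lies below the dashed line of equal difference.

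Without CRS replicate 2, the 2 remaining CRS values lay below all CON values for 34 of the 35 members, where this held for 27.4% of all genes and for 44.7% of those of at least 1 FPKM. With CON replicate 1 left out as well it held for 34, beside 31.1% of all genes and 49.7% of those of at least 1 FPKM. The exception was Srsf2 without CRS replicate 2, at 28.5 FPKM in CRS replicate 3 and 28.4 FPKM in CON replicate 3. In the fit without CRS replicate 2, 30 members were lower at an unadjusted p under 0.05, where 14.6% of all genes were, and the limma adjusted p of the members went no lower than 0.19. With both libraries left out, 25 members were lower at that p (10.9% of all genes). With array weights, by which limma gives less weight to variable libraries, 30 were (23.0% of all genes). For these p-value counts no share was taken over genes of at least 1 FPKM, which were separated more often than all genes. The member median relative to all genes was -0.63 without CRS replicate 2. It was -0.08 without CRS replicate 1, -0.26 without CRS replicate 3 and -0.24 without CON replicate 1. The medians of the 8 classes ran from -1.04 to -0.72 without CRS replicate 2, from -0.55 to -0.09 without CRS replicate 1, and from -0.59 to -0.09 without CRS replicate 3.

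The members shared features that did not enter their choice. In GENCODE M21, 23 of the 35, or 65.7%, had an annotated nonsense-mediated decay transcript, among them 9 of 11 Srsf genes and 10 of 20 hnRNP genes, beside 27.1% of 11781 protein-coding genes of at least 1 FPKM. A retained-intron transcript was annotated for 26 members, 74.3%, beside 56.7% of those genes. Members had a median of 8 annotated transcripts and the other genes 5, which bears on both shares. Gene-level FPKM sums over all these forms, so productive and decay-bound messages cannot be told apart in these data.

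Promoter windows of RefSeq (GRCm38.p6, 250 bases before to 50 after a start) were found for 33 of the 35 members, 46 windows in all. They were rich in G and C, with a median of 66.8% beside 52.7% over all 32851 windows, and held a median of 30.5 CpG sites beside 7. On either strand, the letters of a GC box, GGGCGG, stood in 80.4% of member windows and in 35.7% of all windows. The ETS letters CCGGAAG stood in 21.7% and 8.86%, CCAAT in 23 of the 46 and 37.4%, and TATAAA in 8.70% and 13.6%. These are matches of letters in windows of unlike base composition, not shown binding sites. The windows of 4 members are given because 2 of them, Srsf9 and Hnrnpc, were among the 8 separated between CRS and CON, while in the other 2, Srsf5 and Srrm2, CRS replicate 2 alone was high. Capitals mark the 4 kinds of letters on either strand, and only in Srsf5 do 2 of them overlap. Srsf9 lies on the plus strand at chr5:115326927-115327226, Hnrnpc on the minus strand at chr14:52103972-52104271, Srsf5 on the plus strand at chr12:80945249-80945548 and Srrm2 on the plus strand at chr17:23802937-23803236.
Srsf9: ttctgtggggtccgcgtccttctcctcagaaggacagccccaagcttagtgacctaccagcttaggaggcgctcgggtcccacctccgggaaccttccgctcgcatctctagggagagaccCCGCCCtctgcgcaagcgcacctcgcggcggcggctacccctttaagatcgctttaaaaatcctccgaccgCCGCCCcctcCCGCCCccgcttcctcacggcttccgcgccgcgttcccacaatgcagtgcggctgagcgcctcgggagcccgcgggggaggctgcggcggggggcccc
Hnrnpc: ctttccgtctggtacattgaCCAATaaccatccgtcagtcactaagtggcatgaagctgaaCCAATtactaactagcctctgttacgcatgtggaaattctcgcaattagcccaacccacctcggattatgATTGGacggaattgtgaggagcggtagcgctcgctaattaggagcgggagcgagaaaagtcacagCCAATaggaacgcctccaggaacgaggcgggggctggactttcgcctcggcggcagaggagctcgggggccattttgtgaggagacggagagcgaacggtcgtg
Srsf5: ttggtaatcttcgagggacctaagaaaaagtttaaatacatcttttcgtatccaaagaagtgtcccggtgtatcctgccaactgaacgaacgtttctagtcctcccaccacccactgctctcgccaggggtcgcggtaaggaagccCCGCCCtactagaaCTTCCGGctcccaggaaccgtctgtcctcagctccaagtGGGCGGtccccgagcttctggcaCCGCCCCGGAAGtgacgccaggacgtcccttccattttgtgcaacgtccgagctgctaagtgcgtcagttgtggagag
Srrm2: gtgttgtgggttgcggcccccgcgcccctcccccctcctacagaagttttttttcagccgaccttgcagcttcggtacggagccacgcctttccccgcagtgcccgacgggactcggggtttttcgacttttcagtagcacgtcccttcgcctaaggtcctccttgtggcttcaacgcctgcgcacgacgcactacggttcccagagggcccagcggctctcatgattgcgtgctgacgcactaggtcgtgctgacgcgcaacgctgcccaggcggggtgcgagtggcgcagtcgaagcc
Srsf9 held 3 GC boxes, and Hnrnpc 4 CCAAT boxes with no GC box. Of the 8 separated members, 6 held a GC box and 5 held CCAAT. Srsf5 held 3 GC boxes and 2 ETS matches, and Srrm2 held none of the 4.

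Over 7 lists of splicing and decay factors, 91 of the 96 genes tested were under 0, with a median of -0.43, beside 67.8% of all genes and 74.1% of those of at least 1 FPKM. An unadjusted limma p under 0.05 was found for 2 of the 96 (Snrpa1 and Snrpa), a share near the 1.63% of all genes that were lower at that p and the 2.32% of those of at least 1 FPKM, and 0 passed the adjusted threshold. In 12 of the 96, CRS lay below CON without overlap, beside 5.19% of all genes and 7.96% of those of at least 1 FPKM. The kinases and importers of SR proteins had 10 of 12 under 0 (median -0.35), with Clk4, a kinase that phosphorylates the arginine-serine tail, at -0.61 (SE 0.43) and Srpk3, a muscle kinase of the same tail, at -1.13 (SE 0.85). Srpk3 was low, at 0.224, 0.991 and 0.0713 FPKM in CRS and 1.96, 0.360 and 0.568 FPKM in CON. It was highest in CON replicate 1, the library with the highest sum of muscle markers. Among hnRNPs under other names, 10 of 11 were under 0 (median -0.42), with Raly, a relative of Hnrnpc, at -0.44 (SE 0.28) and the cold-induced Cirbp at 0.45 (SE 0.29). For U1 and Sm core proteins all 11 were under 0 (median -0.56), with Snrpa, the A protein of the U1 particle, at -0.70 (SE 0.29) and Snrpd3 at -0.69 (SE 0.36). In 3 of the 11, CRS lay below CON without overlap. Snrpe, Snrpf, Snrpg and Snrpd2, named after their values were seen, were under 0 through CRS replicate 2 alone. Snrpe had 134, 28.6 and 136 FPKM in CRS and 91.7, 127 and 144 FPKM in CON. Snrpf had 68.4, 19.4 and 70.0 FPKM in CRS and 54.4, 73.8 and 60.4 FPKM in CON. Snrpg had 94.4, 16.0 and 90.2 FPKM in CRS and 49.9, 66.8 and 73.5 FPKM in CON. Snrpd2 had 82.6, 16.8 and 78.7 FPKM in CRS and 52.5, 60.9 and 71.6 FPKM in CON. Among U2 and 3′ splice site factors all 13 tested were under 0 (median -0.45), with Snrpa1, a protein of the U2 particle, at -0.91 (SE 0.29) and Sf3a3 at -0.68 (SE 0.31). The tri-snRNP and Prp19 list had 13 of 15 under 0 (median -0.38), with Cdc5l at -0.48 (SE 0.32) and Snrnp40 at -0.76 (SE 0.59). Other splicing regulators had all 20 tested under 0 (median -0.53), with Rbm39 at -0.75 (SE 0.37) and the RNA stabiliser Elavl1 at -0.56 (SE 0.29). In the nonsense-mediated decay list all 14 were under 0 (median -0.35), with Upf3b at -0.80 (SE 0.41) and Rbm8a at -0.51 (SE 0.30).

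The lists differed in CRS replicate 2. The U1 and Sm core genes had a median of -1.26 relative to the CON mean there, and of -0.51 and -0.18 in CRS replicates 1 and 3, the reverse of the order in the SR and hnRNP genes. By contrast, hnRNPs under other names had a median of 0.80 in CRS replicate 2 and of -1.02 and -0.92 in CRS replicates 1 and 3. The U1 and Sm core list was not uniform. Snrnp70, Snrpa and Snrpn were higher in CRS replicate 2 than in CRS replicates 1 and 3. The part of exon length in these differences was not tested.

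Sums of other cell type markers also differed between libraries. The 10 cycling markers summed to 69.4, 121 and 68.3 FPKM in CRS and to 176, 137 and 143 FPKM in CON, all 10 with a log2 fold change under 0, where 67.8% of all genes were, and none at 0 in any library. The 5 endothelial markers, all under 0, summed to 8.56, 26.8 and 8.30 FPKM in CRS and to 40.5, 15.1 and 14.5 FPKM in CON. The 12 skeletal muscle markers, all under 0, summed to 493, 3029 and 885 FPKM in CRS and to 14460.4, 1622 and 2827 FPKM in CON. The 6 hair shaft markers found, 5 of them above 0, ran the other way, at 4106, 4759.9 and 7501 FPKM in CRS and 1294, 4181 and 2759 FPKM in CON. The 8 immune markers, all above 0, summed to 286 to 427 FPKM in CRS and to 121 to 468 FPKM in CON. The 5 adipocyte markers, 3 of them under 0, summed to 263 to 504 FPKM in CRS and to 231 to 403 FPKM in CON. Of the 7 keratinocyte and the 7 fibroblast markers, whose sums are given above, 6 in each list were above 0. The part of these cell type markers in the members' values was not tested.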

How the data were processed

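The authors deposited 1 table of FPKM values per library, 6 in all, with 54146 Ensembl gene IDs. The submitters' processing notes name HISAT2 and GRCm39; how fragments were counted, and on which annotation, was not given in the sources used. GENCODE M21 (GRCm38) held 54079 of the IDs and supplied symbols, gene types and exon lengths. FPKM multiplied by exon length fell on whole steps (98.1% to 98.3% of values up to 100 fragments within 0.05 of a whole number), which gave each library's depth.

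The 28389 genes averaging 0.1 FPKM or more were fitted together as log2(FPKM + 0.1), CRS against CON, with limma 3.58.1 (R 4.3.3; moderated, mean-variance trend, two-sided) and Benjamini-Hochberg adjustment at 0.05. The scripts were tested on simulated data. No label gives a litter or batch, and p-values measure the spread between these libraries only. Same-numbered libraries of the 2 groups were not paired by any label.

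The members and lists were chosen with earlier results of these data known, so no list was tested. Values in every library were given, per class, for the member with the highest mean and the 2 with the lowest unadjusted p. For each other list, log2 fold changes were given for the 2 genes with the lowest p. Tables and figures used Python 3.11.15, pandas 2.3.3 and matplotlib 3.10.9.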

Additional observations from a re-analysis of the deposited data

How the results depend on the processing

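Over 17 alternatives (other pseudocounts, filters, scalings and variance models, array weights, the replicate block, each library left out, both outlying libraries left out, and limma voom on recovered fragments), 0 genes and 0 members passed limma's adjusted threshold, which with 3 libraries a group says nothing about stability. The lowest adjusted p of any member was 0.090, with array weights. The members' median lay between -0.85 and -0.33 with each library left out, and 29 members kept their sign throughout.

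The count of members lower at an unadjusted limma p under 0.05 was 4 as reported and 0 with median-ratio scaling (background 0.648%). Without the mean-variance trend it was 1, and no background is given for that fit. It was 30 with array weights (background 23.0%) and 25 with both outlying libraries left out (background 10.9%). With each library left out it ran from 1 without CRS replicate 1 (background 3.54%) to 30 without CRS replicate 2 (background 14.6%). The count of separated members was 8 as reported (background 5.19%) and 4 with median-ratio scaling (background 2.18%). With both outlying libraries left out it was 34, beside 31.1% of all genes and 49.7% of those of at least 1 FPKM. With each library left out it ran from 8 to 34, while the share of all genes ran from 7.11% to 27.4%. Without CRS replicate 1 it was 8, beside 15.5% of all genes. With each library left out, class medians ran from -0.86 to -0.36 for SR proteins with 2 RNA recognition motifs, -1.04 to -0.55 for those with 1, -0.96 to -0.28 for SR-like, -0.74 to -0.35 for hnRNP A/B, -0.87 to -0.17 for D, -0.94 to -0.29 for F/H, -0.72 to -0.09 for U and -0.85 to -0.40 for C, K, L, M and R.

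Median-ratio scaling moved the median of all genes to 0.0038, Srrm2 to 0.098, Hnrnph2 to 0.095 and Hnrnpul1 to 0.0036. With each library left out, log2 fold changes ran from -1.86 to 0.22 for Srsf4, -0.84 to 0.045 for Srsf5, -0.84 to 0.074 for Srrm1, -1.10 to 0.52 for Srrm2, -0.39 to 0.053 for Hnrnph2 and -0.72 to 0.047 for Hnrnpul1. The cause was not tested.

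With the replicate number as a block (replicate block), 0 members were lower at an unadjusted p under 0.05. Deviations of same-numbered libraries correlated at -0.30, -0.043 and 0.097 for numbers 1 to 3, and those of unlike-numbered libraries at -0.401 to 0.497. Deviations from a mean of only 3 libraries depend on each other, so these values cannot show whether libraries were paired. Srsf12 and Srsf4, from 6 to 36 and 19 to 606 fragments, are limited most by depth.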
